A study of Mus musculus with 15 samples.

Results

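The potassium channel genes described here are the autosomal genes whose symbol is Kcn followed by lower-case letters and a number, with 2 symbols left out by name. Of 92 matching symbols in the 44260 genes of the deposited table, 89 remained after this and after leaving out the X-linked Kcnd1. The 6 allele columns averaged 10 or more for 60 of the 89, which could be compared between alleles, and less for the other 29. The organoids came from SpretB6 lines, mouse hybrids in which every cell holds an autosome set of C57Bl/6J (B6) and an autosome set of Mus spretus (Spret). There were 3 libraries of day 12 organoids that model the cerebral cortex, titled C1 to C3 and called libraries 1, 2 and 3, and each gene has 1 value per allele in each of them. All 3 share 1 genotype, and no treatment divides them, so the question was how far the 2 alleles differ inside the same cells. The tissue label names epiblast stem cells, and the growth protocol names organoids grown from them. Nothing in the labels says whether C1 to C3 were separate cultures, so the p-values cover only how these 3 libraries vary, and part of that may be technical. The parent that gave each genome is not varied here, so an effect of strain and an effect of parental origin cannot be told apart. The 12 induced pluripotent stem cell samples of the series were not analysed here.

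Potassium channels let potassium leave the cell, which holds the resting membrane potential negative and ends each action potential. Voltage-gated (Kv) channels open on depolarisation, inward rectifiers (Kir) and tandem pore domain leak channels (K2P) set the resting potential, and a further class opens on internal calcium or sodium. Auxiliary subunits form no pore and change the gating or surface level of those that do. In the cortex, leak and inward rectifier channels keep progenitors hyperpolarised, and neurons add Kv channels as they mature.

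Values are normalised read numbers rounded to whole numbers, as the authors deposited them. A ratio is log2(Spret value + 1) minus log2(B6 value + 1), so it is negative where B6 is higher, and it understates differences of low genes. A gene is named called where limma, fitted on all 15985 genes with a mean of at least 10, gave a Benjamini-Hochberg adjusted p below 0.05. Allele columns summed to between 2088788 and 3027078, which corresponds to about 1640000 to 4500000 reads per allele after division by the scale estimated from the values. Of the 3 libraries, library 3 rests on most reads. All 6 cortical neuron markers and all 7 dorsal progenitor markers passed the mean of 10. The neuron markers summed to 24492, 24588 and 25187 in libraries 1, 2 and 3. These sums are not divided by the library totals, and they hide opposite moves of single markers. Over both alleles Neurod6 summed to 4730, 4871 and 3177, and Tbr1 to 245, 234 and 508. The 4 choroid plexus markers summed to 2711, 608 and 352, so library 1 stands apart in that cell type.

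Of the 60 comparable channel genes, 20 differed between alleles (33.3%), against 28.4% of the 15456 tested autosomal genes. B6 was higher in 17 of them (28.3% of the 60, against 20.7% of autosomal genes) and Spret in 3 (5%, against 7.78%). These shares lie near the background over all levels and are no result about channel genes as a group. They are not matched for level: the median of the mean values was 30.25 for the channel genes and 67.7 for autosomal genes. The 17 called toward B6 had a median ratio of -0.59 and ran from -1.65 to -0.37. The median over the 60 genes was -0.35, with quartiles of -0.57 and 0.04, beside -0.13 for autosomal genes. Ratios were below 0 in all 3 libraries for 30 of the 60 (50%, against 36.8% of autosomal genes) and above 0 in all 3 for 7 (11.7%, against 17.2%). All Spret values lay below all B6 values in 9 (15%, against 16.8%) and above them in 3 (5%, against 6.96%). A difference of at least 2-fold was called in 5, namely Kcnu1, Kcnh6, Kcna3, Kcne2 and Kcnk4 (8.33%, against 7.35%).

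**Figure D1:**
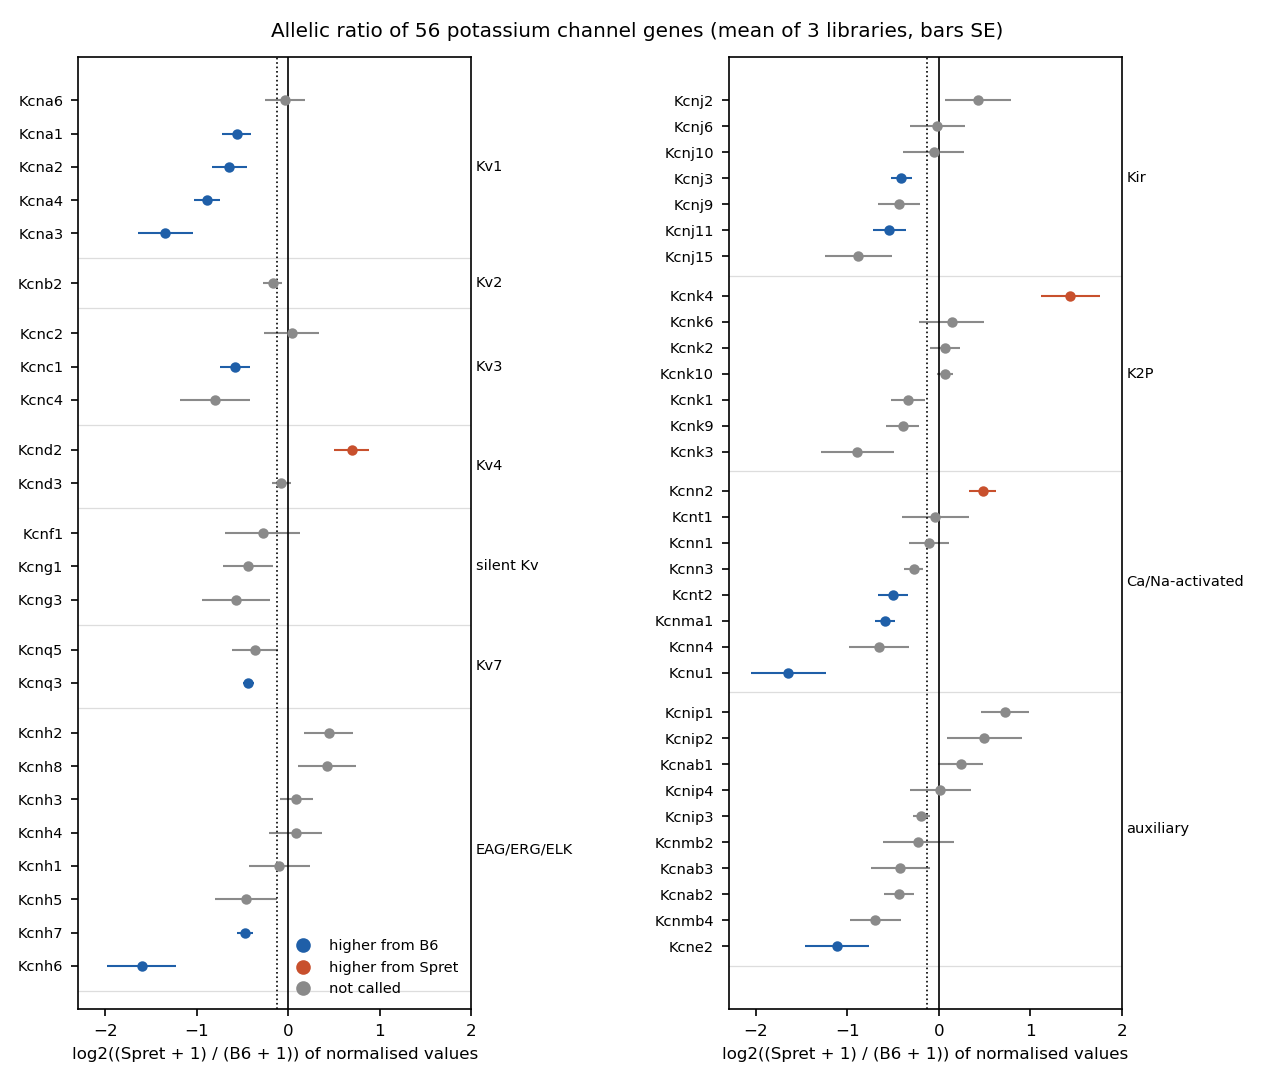
Log2 ratio of Spret to B6 (horizontal axis, log2 of normalised values plus 1) for 56 of the 60 channel genes, grouped by class. Points are limma estimates over 3 libraries, bars are standard errors, blue and red mark genes called toward B6 (14) and Spret (3), and the dotted line is the autosomal median of -0.13.

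Calls were more frequent among abundant genes. Of 17 channel genes with a mean of 10 to 20, 2 were called, of 18 from 20 to 50, 4 were called, and of 12 from 50 to 100, 6 were called. Above 100 it was 8 of 13, all toward B6. Autosomal genes in the same ranges were called, in either direction, at 15.3%, 21.2%, 27.4% and 39.7%. Their directions were not counted by range. Over all levels 20.7% of autosomal genes were called toward B6 and 7.78% toward Spret, so the direction above 100 has no matched background. The median standard error of a channel gene's ratio was 0.36 in the lowest range and 0.10 in the highest, so an uncalled low gene is not shown to be balanced. When each library's ratios were centred on the autosomal median, 17 channel genes were called, 13 toward B6 (21.7%, against 13.5%) and 4 toward Spret (6.67%, against 13.3%), with 26.8% of autosomal genes called. Without library 1, 2 or 3, 9, 15 and 10 channel genes were called (15%, 25% and 16.7%, against 14.4%, 23.5% and 17.6% of autosomal genes), of which 9, 14 and 10 were among the 20. Only 3 were called without the library term, 7 without limma's intensity trend and 1 with no filter on low values, where 7.03%, 11.5% and 1.72% of autosomal genes were. The 3 called without the library term were Kcnu1, Kcnh6 and Kcnk4. Kcna1, Kcna3, Kcna4, Kcnh6, Kcnk4 and Kcnma1 kept their calls without the trend, and Kcna3, Kcna4, Kcnh7, Kcnk4, Kcnma1 and Kcnq3 kept theirs when any 1 library was left out.

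**Figure D2:**
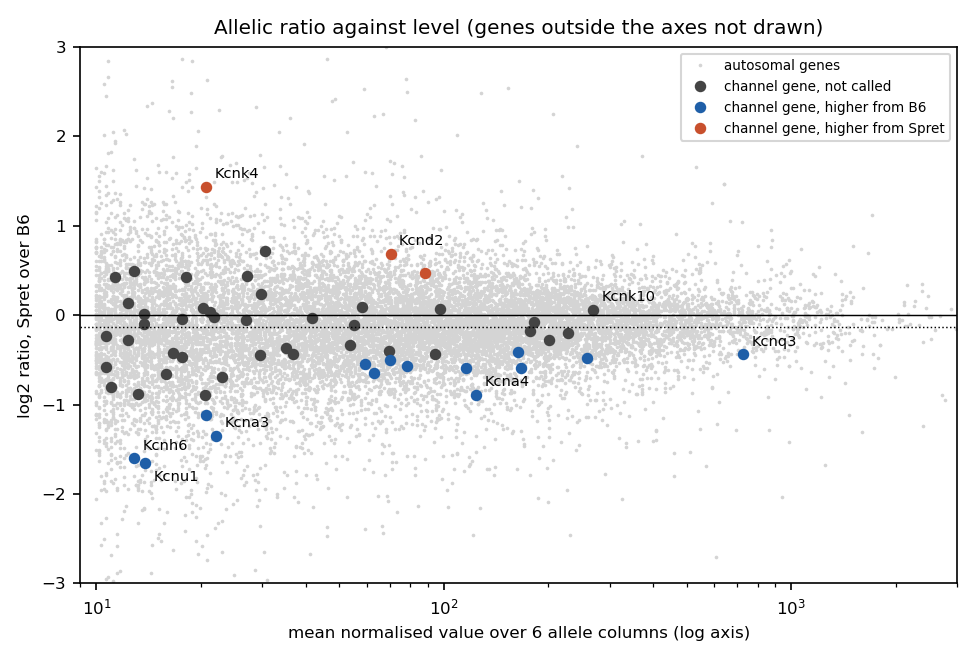
Log2 ratio (vertical axis) against the mean normalised value over the 6 allele columns (horizontal axis, log scale) for tested autosomal genes in grey and 56 of the 60 channel genes as larger points, blue or red where called toward B6 or Spret. Kcnk4 stands highest and Kcnu1 and Kcnh6 lowest among channel genes, all at means under 25, while Kcnq3 lies at a ratio of -0.44 with the highest mean.

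Promoter sequence is shown for Kcna4, which had the lowest adjusted p among channel genes that were called toward B6 and have a RefSeq window, and for Kcnk4 and Kcnd2, the pair with the lowest adjusted p toward Spret. Each window is 300 bases of the reference strain (GRCm38.p6), from 250 before the transcription start to 50 after it, read on the gene's strand, with the start that RefSeq lists, which can differ from the start of the GENCODE gene given below, and capitals mark the GC box GGGCGG on either strand. They lie at chr2:107290339-107290638 (plus strand), chr19:6934466-6934765 (minus strand) and chr6:21215096-21215395 (plus strand).
Kcna4: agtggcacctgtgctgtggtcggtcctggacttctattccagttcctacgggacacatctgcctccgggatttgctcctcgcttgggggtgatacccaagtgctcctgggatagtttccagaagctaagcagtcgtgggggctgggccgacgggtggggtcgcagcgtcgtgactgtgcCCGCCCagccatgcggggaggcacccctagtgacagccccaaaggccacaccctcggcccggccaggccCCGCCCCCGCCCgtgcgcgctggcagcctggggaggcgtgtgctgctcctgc
Kcnk4: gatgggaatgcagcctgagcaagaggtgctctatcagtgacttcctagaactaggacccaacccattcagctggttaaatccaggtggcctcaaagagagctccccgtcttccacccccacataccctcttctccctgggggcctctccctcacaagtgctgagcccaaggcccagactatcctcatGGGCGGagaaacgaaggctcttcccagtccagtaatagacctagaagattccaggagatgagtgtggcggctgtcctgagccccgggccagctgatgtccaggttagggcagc
Kcnd2: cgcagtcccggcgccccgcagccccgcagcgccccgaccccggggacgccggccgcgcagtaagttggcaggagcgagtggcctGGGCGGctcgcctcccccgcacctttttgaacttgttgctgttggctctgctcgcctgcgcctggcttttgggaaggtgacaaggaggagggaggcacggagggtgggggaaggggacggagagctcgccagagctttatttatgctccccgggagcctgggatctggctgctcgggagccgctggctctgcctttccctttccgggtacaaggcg
The Kcna4 window holds 3 matches to the GC box and 20 CpG dinucleotides, the Kcnd2 window 1 and 26, and the Kcnk4 window 1 and 5. A window was found for 43 of the 60 channel genes, taking the one nearest the start of the GENCODE gene on its strand. Of these, 25 hold a GC box (58.1%), against 35.9% over 27025 genes, taking the first window listed for a gene. The 27025 were not limited to genes with a mean of at least 10, so the sets compared here are unlike. The TATA box TATAAA was in 2 of 43 (4.65%, against 14.2%), CCAAT in 14 (32.6%, against 37.9%), the E-boxes CAGATG in 6 (against 17.2% of all genes) and CAGCTG in 9 (20.9%, against 16.1%), and TGACG, a core bound by CREB, in 12 (27.9%, against 21.0%). Both strands were searched for each motif, whether or not another motif overlaps it. Median GC content was 62.67% in channel gene windows and 52.67% over all genes. Sequence of the Spret allele was not used here, so the windows say nothing of where the alleles differ.

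Kv1 channels, the Shaker relatives that hold down excitability in axons, were called in 4 of 5 comparable members, all toward B6, with a median ratio of -0.64 (20.7% of autosomal genes were called toward B6). Kcna4, an A-type channel on chromosome 2 (107290639 to 107298502, mm10), read 120, 144 and 215 from B6 and 50, 96 and 120 from Spret in libraries 1, 2 and 3. B6 was higher in each library, by the largest log2 ratio in library 1, and the lowest B6 value equals the highest Spret value. Its ratio was -0.89 ± 0.14 (SE, limma adjusted p = 0.000271), a 1.85-fold difference. Kcna3, a channel of neurons and lymphocytes on chromosome 3 (107036169 to 107038070), read 30, 19 and 46 from B6 and 10, 6 and 22 from Spret. Spret was well below B6 in each library although the ranges overlap across libraries, and the ratio was -1.35 ± 0.30 (limma adjusted p = 0.00345). An antisense gene, Gm27008, covers Kcna3 in the annotation with a mean of 6.17, and whether strand was used in counting was not stated.

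Kcna2, an axonal delayed rectifier on the same chromosome (107101146 to 107115005), read 76, 64 and 91 from B6 and 42, 54 and 50 from Spret. No Spret value reached a B6 value, and the ratio was -0.64 ± 0.19 (limma adjusted p = 0.0178). Kcna1, its usual partner in axonal channels, on chromosome 6 (126640397 to 126646384), read 83, 78 and 120 from B6 and 60, 48 and 82 from Spret, a ratio of -0.56 ± 0.16 (limma adjusted p = 0.0131). The calls of Kcna1 and Kcna2 ended without library 1 (limma adjusted p = 0.058 and 0.15) and without library 3 (0.0904 and 0.156), while those of Kcna3 and Kcna4 stood without any 1 library. Kcna6, 61945 bases from Kcna1, was not called. It read 29, 40 and 60 from B6 and 34, 38 and 50 from Spret, a ratio of -0.04 ± 0.22 (limma adjusted p = 0.92), and whether it differs from its relatives was not tested. Between Kcna3 and Kcna2 lies the noncoding gene AI504432, 1434 bases from Kcna3, which was also called toward B6 at -1.31 ± 0.18 (limma adjusted p = 6.39e-05).

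Kv7 channels carry the M current, a slow brake on firing that acetylcholine switches off, and Kcnq3, a subunit of these channels, had the highest mean of the 60. Kcnq3, on chromosome 15 (65986387 to 66286642), read 686, 744 and 1088 from B6 and 540, 536 and 771 from Spret. B6 was higher within each library, library 3 was highest for both alleles, and the ranges overlap. The ratio was -0.44 ± 0.06 (limma adjusted p = 5.32e-05), a 1.35-fold difference. Kcnq3 alone among channel genes kept its call with no filter on low values (adjusted p = 0.0434). Kcnq5, a broadly expressed brain subunit, was not called (-0.36 ± 0.25, limma adjusted p = 0.299), although B6 was higher in 3 of 3 libraries. An antisense gene inside Kcnq3, Gm27153, had means of 18.7 from B6 and 9.67 from Spret and was not called (limma adjusted p = 0.0629).

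**Figure D3:**
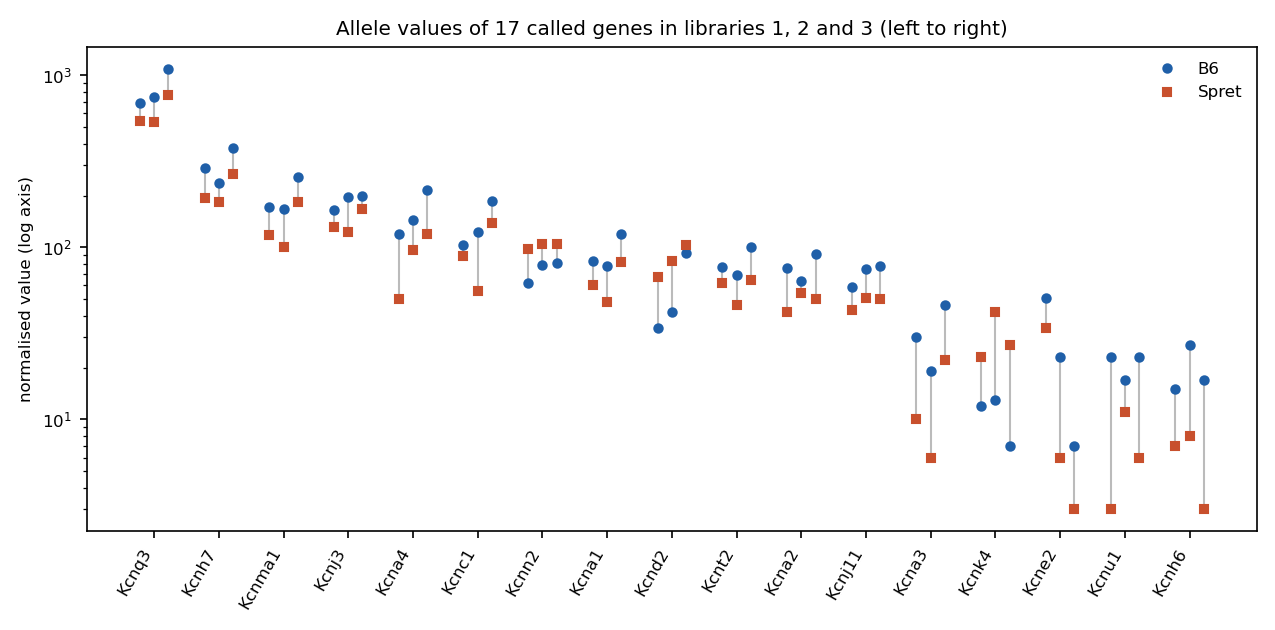
Normalised values (vertical axis, log scale) of the B6 allele (circles) and the Spret allele (squares) for 17 of the 20 called channel genes, with libraries 1, 2 and 3 from left to right in each gene and a line joining the alleles of a library. In each of them the alleles keep their order in all 3 libraries, and Kcne2 falls from 51 to 7 on B6 between libraries 1 and 3.

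Kcnb2, a Kv2 delayed rectifier, read 185, 168 and 208 from B6 and 165, 147 and 186 from Spret. B6 was higher in each library and the ranges overlap, with a ratio of -0.17 ± 0.10 that did not pass the test (limma adjusted p = 0.219).

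Kv3 channels allow fast firing. Kcnc1, the Kv3 gene with the highest mean, on chromosome 7 (46396497 to 46438704), read 103, 123 and 187 from B6 and 89, 56 and 138 from Spret. The gap was widest in library 2, and the ratio was -0.59 ± 0.16 (limma adjusted p = 0.0137). Without library 2 the ratio was -0.32 and the call ended (adjusted p = 0.127), and it also ended without library 3 (0.0615). Kcnc2 and Kcnc4 had ratios of 0.04 and -0.80 with standard errors of 0.30 and 0.39, and neither was called. The modifier subunits that join Kv2 channels without forming channels alone were sparse: Kcnf1, Kcng1 and Kcng3 were the 3 of 10 with a mean of at least 10. Kcng1 had the highest mean and read 28, 20 and 58 from B6 and 21, 20 and 30 from Spret. Ratios of the 3 were -0.28, -0.44 and -0.58, and limma called 0 of them, with 0 at an unadjusted p under 0.05.

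Kv4 channels carry the dendritic A-type current, and here Kcnd2 was higher from Spret. Kcnd2, on chromosome 6 (21215503 to 21729805), read 34, 42 and 93 from B6 and 67, 83 and 103 from Spret. Spret was higher in each library, though by little in library 3, and the ranges overlap. The ratio was 0.69 ± 0.19 (limma adjusted p = 0.0149), a 1.61-fold difference. It lost its call without library 1 (ratio 0.56, adjusted p = 0.152) and without library 2 (0.55, adjusted p = 0.084). Its relative Kcnd3 read 170, 145 and 247 from B6 and 177, 135 and 217 from Spret, a ratio of -0.08 ± 0.10 (limma adjusted p = 0.618). Gm42583, annotated inside Kcnd2 on the same strand, had means of 40.7 from B6 and 55.3 from Spret and was not called (0.60 ± 0.24, limma adjusted p = 0.0755).

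The EAG, ERG and ELK channels, a family that includes the repolarising channel of the heart, Kcnh2, had 8 comparable members of 8. Kcnh7, an ERG channel of the nervous system on chromosome 2 (62693414 to 63184287), read 290, 235 and 380 from B6 and 194, 184 and 268 from Spret. B6 was higher in each library and the ranges overlap, with a ratio of -0.48 ± 0.09 (limma adjusted p = 0.000929). Kcnh6, another ERG channel, on chromosome 11 (106008124 to 106034549), read 15, 27 and 17 from B6 and 7, 8 and 3 from Spret. No Spret value reached a B6 value, and the ratio was -1.60 ± 0.38 (limma adjusted p = 0.00489), but the gene reached the mean of 10 only through its B6 values, and the call ended without library 3 (adjusted p = 0.0583). The other 6 were not called. Kcnh1, Kcnh3, Kcnh4 and Kcnh5 had ratios of -0.10, 0.09, 0.08 and -0.46, and Kcnh2 and Kcnh8 had 0.44 and 0.43. Kcnh2 read higher from Spret in 3 of 3 libraries without passing the test (limma adjusted p = 0.241).

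Inward rectifiers had 7 comparable members of 14, and 2 were called, both toward B6, which is near the 28.4% of autosomal genes called. Kcnj3, a subunit of the channels that G protein-coupled receptors open, on chromosome 2 (55435970 to 55598145), read 164, 197 and 199 from B6 and 132, 123 and 167 from Spret. B6 was higher in each library and 1 Spret value entered the B6 range, with a ratio of -0.41 ± 0.12 (limma adjusted p = 0.0148). Without library 1 or 2 the call ended (adjusted p = 0.0695 and 0.122), as it did with centred ratios (0.0752). Its partner subunits Kcnj6 and Kcnj9 were not called, at -0.02 ± 0.30 and -0.44 ± 0.23, although all 3 Kcnj9 values from Spret lay below those from B6.

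Kcnj11 is the pore of the ATP-sensitive channel that links metabolism to excitability, and Abcc8, its sulfonylurea receptor subunit, is the next gene along chromosome 7, 3759 bases away. Kcnj11 (46093953 to 46100764) read 59, 75 and 78 from B6 and 43, 51 and 50 from Spret. The alleles did not overlap, and the ratio was -0.54 ± 0.18 (limma adjusted p = 0.0319). Abcc8 had means of 116 ± 15.9 from B6 and 61.3 ± 2.31 from Spret (SD, n = 3), a ratio of -0.90 ± 0.15 (limma adjusted p = 0.000331), so both subunits were higher from B6. The call of Abcc8 stood without any 1 library, while that of Kcnj11 ended without library 1, 2 or 3 (adjusted p = 0.0913, 0.0809 and 0.171) and with centred ratios (0.0934). Kcnj2, Kcnj10 and Kcnj15 had ratios of 0.43, -0.06 and -0.88 and were not called. Kcnj10, the potassium uptake channel of glia, read 30, 46 and 12 from B6 and 27, 23 and 24 from Spret, so the allele that was higher changed with the library.

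K2P leak channels, which set the resting potential of progenitors and neurons, had 7 comparable members of 14. Limma called 0 toward B6, with 2 at an unadjusted p under 0.05, and 1 toward Spret, where 20.7% and 7.78% of autosomal genes were called. That 1 was Kcnk4, a channel opened by stretch and lipids, on chromosome 19 (6923966 to 6934515), which read 12, 13 and 7 from B6 and 23, 42 and 27 from Spret. Every Spret value was above every B6 value, and the ratio was 1.44 ± 0.32 (limma adjusted p = 0.00316), a 2.71-fold difference and the largest toward Spret among the 60. Of the 10 alternatives that could be run for it, the call ended with no filter on low values alone (adjusted p = 0.106). Catsperz overlaps Kcnk4 by 1415 bases on the same strand and was called in the same direction at 1.43 ± 0.42 (limma adjusted p = 0.0187), with means of 4.67 from B6 and 15.3 from Spret. It reached the mean of 10 only through its Spret values, so its call is no support for that of Kcnk4. Whether the pair shares reads was not tested.

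Kcnk10, a relative of Kcnk4 and the K2P gene with the highest mean, read 228, 259 and 303 from B6 and 258, 265 and 298 from Spret. Neither allele was higher in all 3 libraries, with a ratio of 0.06 ± 0.09 (limma adjusted p = 0.63). Kcnk2, the remaining member of that mechanically gated group, had 0.06 ± 0.16. Kcnk1, Kcnk3 and Kcnk6 had ratios of -0.34, -0.89 and 0.14. Kcnk9, an acid-sensitive leak channel known as an imprinted gene expressed mainly from the maternal copy in brain, read 60, 79 and 97 from B6 and 39, 77 and 66 from Spret. Spret was lower in each library but nearly equal in library 2, and the ratio of -0.40 ± 0.18 did not pass the test (limma adjusted p = 0.104). Both alleles had values above 0 in each library. Without library 2 the ratio passed (ratio -0.58).

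The class opened by internal calcium or sodium, counted here with the pH-sensitive Kcnu1, was comparable in 8 of 8 members. Limma called 3 toward B6 and 1 toward Spret, where 20.7% and 7.78% of autosomal genes were called. Kcnma1, the large-conductance calcium-activated channel on chromosome 14 (23289431 to 24014491), read 172, 168 and 257 from B6 and 118, 100 and 183 from Spret. B6 was higher in each library, the ranges overlap, and the ratio was -0.59 ± 0.11 (limma adjusted p = 0.000864). Kcnt2, a sodium-activated channel on chromosome 1 (140246158 to 140612067), read 77, 69 and 101 from B6 and 62, 46 and 65 from Spret, with no overlap. Its ratio was -0.50 ± 0.17 (limma adjusted p = 0.0333), and the call ended without library 1, 2 or 3 (0.0765, 0.086 and 0.204) and with centred ratios (0.103). Kcnu1, the pH-sensitive relative best known from sperm, on chromosome 8 (25849623 to 25937939), read 23, 17 and 23 from B6 and 3, 11 and 6 from Spret, a ratio of -1.65 ± 0.41 (limma adjusted p = 0.00698). No values overlapped. Like Kcnh6 it reached the mean of 10 only through B6 values, and its call ended without library 1 or 3 (0.117 and 0.0588).

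Of the calcium-activated channels of lower conductance, which shape the pause after a spike, Kcnn2 was called. Kcnn2, on chromosome 18 (45268860 to 45686024), read 62, 79 and 81 from B6 and 98, 105 and 105 from Spret. Every Spret value exceeded every B6 value, and the ratio was 0.48 ± 0.15 (limma adjusted p = 0.0238), with the call ending without library 1 or 3 (adjusted p = 0.159 and 0.0777). Kcnn3, the member with the highest mean of the class, read 200, 188 and 267 from B6 and 180, 135 and 231 from Spret and lay just outside the threshold at -0.28 ± 0.10 (limma adjusted p = 0.0542). Kcnn1, Kcnn4 and Kcnt1 had ratios of -0.11, -0.66 and -0.04. An antisense gene in Kcnn2, A330093E20Rik, had means of 30 from B6 and 43.7 from Spret and was not called (limma adjusted p = 0.0935).

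Auxiliary subunits had 10 comparable members of 15, and limma called 1 toward B6 and 0 toward Spret, with 3 and 1 at an unadjusted p under 0.05, where 20.7% and 7.78% of autosomal genes were called. Kcnip1, a calcium sensor that binds Kv4 channels, sat just outside the threshold. It read 27, 23 and 19 from B6 and 34, 37 and 44 from Spret, with no overlap, a ratio of 0.72 ± 0.26 and a limma adjusted p = 0.0502, and with centred ratios it was called at 0.84. Kcnip3, a relative that also acts as a calcium-dependent transcriptional repressor, had the highest mean of the class. It read 236, 221 and 274 from B6 and 199, 207 and 231 from Spret, a ratio of -0.19 ± 0.09 (limma adjusted p = 0.124). Kcnip2 and Kcnip4 had 0.50 and 0.01. The Kv1 beta subunits Kcnab1, Kcnab2 and Kcnab3 had 0.24, -0.44 and -0.42, and the beta subunits of Kcnma1, Kcnmb2 and Kcnmb4, had -0.23 and -0.69, none of them called. Kcnmb4 read 31, 28 and 27 from B6 and 16, 18 and 18 from Spret without overlap (limma adjusted p = 0.0723).

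Kcne2, a single-span subunit known from heart, stomach and choroid plexus, was the called auxiliary gene, on chromosome 16 (92292389 to 92298129). It read 51, 23 and 7 from B6 and 34, 6 and 3 from Spret. Both alleles were highest in library 1 and lowest in library 3, with B6 above Spret each time, and the ratio was -1.12 ± 0.35 (limma adjusted p = 0.0273). The call ended without any 1 of libraries 1, 2 and 3 (adjusted p = 0.0909, 0.163 and 0.0606). Of the 4 choroid plexus markers, 3 were also highest in library 1 and lowest in library 3: over both alleles Ttr summed to 2555, 534 and 323, Folr1 to 79, 31 and 13, and Aqp1 to 58, 20 and 8. The fourth, Kl, was highest in library 2, at 19, 23 and 8, and is the 1 that missed the mean of 10. None was listed at 0 in all columns. Ttr was also called toward B6, at -1.68 ± 0.09 (limma adjusted p = 7.03e-10), while Folr1 and Aqp1 were not, at -0.15 and -0.31. Their part in the level of Kcne2 was not tested.

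Levels of both alleles together differed between libraries for some channel genes, which in bulk RNA cannot separate fewer cells of a type from less RNA per cell. Expressed per 1000000 of a library's summed values, the highest library was a median of 1.41 times the lowest over the 60 genes. The ratio was over 1.5 in 27 genes, over 2 in 11 and over 3 in 3, namely Kcne2, Kcnk6 and Kcnc4. Kcne2 stood at 16.9, 6.44 and 1.76 on this scale. Over the 60 genes, 5, 30 and 25 were highest in libraries 1, 2 and 3. Among voltage-gated members 18 of 28 were highest in library 3. All 7 comparable K2P members were highest in library 2. Some of them differed little, among them Kcnk1 (21.4, 22.2 and 20.3), Kcnk3 (7.74, 8.88 and 7.76) and Kcnk10 (96.4, 116 and 106). Library 2 was also highest for 5 of 7 inward rectifiers, 5 of 8 calcium- or sodium-activated and 5 of 10 auxiliary genes. The share over all autosomal genes was not computed, so these counts are not shown to be particular to any class. Kcnq3 stood at 243, 284 and 328 and Kcna4 at 33.7, 53.3 and 59.1. Kcnb2 was even, at 69.4, 70.0 and 69.5. Each library is 1 value, so these differences between libraries have no test.

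**Figure D4:**
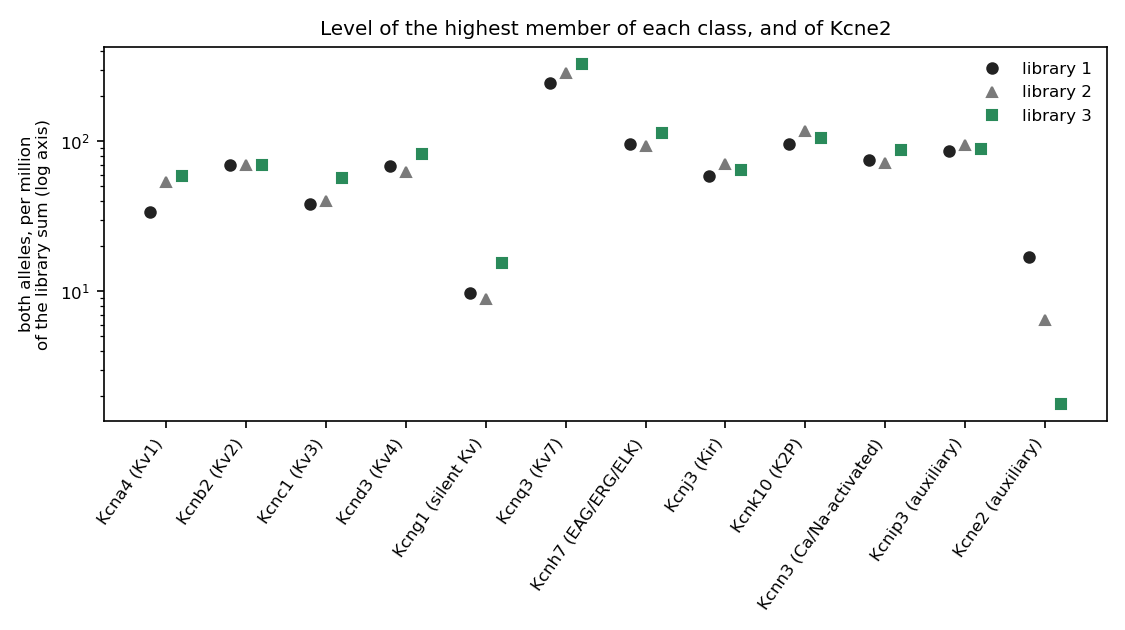
Level of both alleles per 1000000 of the library's summed values (vertical axis, log scale) in libraries 1, 2 and 3 for the member with the highest mean in each class and for Kcne2. Kcne2 spans 16.9 to 1.76, while Kcnb2 stays between 69.4 and 70.0.

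Compared per length, as the mean summed value per kilobase of annotated exon, high channel genes were Kcnip3 at 129, Kcnq3 at 98.9, Kcnj3 at 62.8, Kcnk10 at 61.2 and Kcna4 at 51.4. Kcnt1 at 3.72 and Kcnh1 at 3.73 were the lowest of the 60. How many sequence differences separate the alleles of each gene is not known here and can enter this order, and neighbours in it are not shown to differ. The 29 genes below the mean of 10 ran from 1.33 to 9.17, with a median of 5.33. They were Kcna5, Kcna7 and Kcna10, the modifiers Kcng2, Kcng4, Kcns1, Kcns2, Kcns3, Kcnv1 and Kcnv2, the inward rectifiers Kcnj1, Kcnj4, Kcnj5, Kcnj8, Kcnj12, Kcnj14 and Kcnj16, the leak channels Kcnk5, Kcnk7, Kcnk12, Kcnk13, Kcnk15, Kcnk16 and Kcnk18, and the auxiliary subunits Kcne1, Kcne3, Kcne4, Kcnmb1 and Kcnmb3. Just below the limit were Kcnj14 at 9.17 and Kcnv2 and Kcng4 at 8.33, and just above it Kcng3 and Kcnmb2 at 10.7 and Kcnc4 at 11.

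Neighbouring genes were read in the same fit. The nearest comparable genes on both sides of the 20 called channel genes made 40 pairs, and in 11 the neighbour was called too (27.5%, against 28.4% of autosomal genes). It had the sign of the channel gene in 7 of these and the opposite sign in 4. Besides AI504432, which counts for both Kcna2 and Kcna3, Abcc8 and Catsperz, the neighbours with the same sign were Smim11 beside Kcne2 (-0.58), Dcaf7 beside Kcnh6 (-0.30) and Hgsnat beside Kcnu1 (-0.54). Opposite signs were found, among others, for Mettl15 beside Kcna4 (0.95) and Nr4a2 beside Kcnj3 (0.51). The other 29 were not called. Beside genes called toward B6 these included Vwf (0.17) and Kcna6 (-0.04) beside Kcna1, Lamtor5 (-0.02) beside Kcna2, Gm38253 (-0.50) beside Kcna3, Arl14ep (-0.20) beside Kcna4, and Otog (0.19) and Gm45311 (-0.83) beside Kcnc1. Kcne2 had Gm49711 (-0.26), Kcnh6 had Ace (-0.44), Kcnh7 had Gca (0.19) and Fign (0.42), Kcnj11 had Nomo1 (0.05) and Kcnj3 had Galnt13 (0.56). Kcnma1 lay between Zfp503 (-0.16) and 4930519K11Rik (-0.28) and Kcnq3 between Gm27153 (-0.99) and Phf20l1 (-0.06). Kcnt2 had Gm37777 (-0.06) and B3galt2 (0.07), and Kcnu1 had Ash2l (-0.23). Beside the genes called toward Spret stood Gm42583 (0.60) and Tspan12 (-0.05) for Kcnd2, Gpr137 (0.20) for Kcnk4, and Ythdc2 (0.16) and A330093E20Rik (0.54) for Kcnn2. Gaps between a channel gene and its neighbour ran from 0 to 3028597 bases. Of the 20 called genes, 10 overlap another annotated gene, against 34 of all 60, and for 7 the overlapping gene had a mean of at least 10, against 20 of all 60.

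Genes that work with potassium channels showed calls in both directions. Of the 35 accessory, anchoring and clustering partners, 31 autosomal genes were comparable, with 8 higher from B6 and 1 from Spret (29%, against 28.4%), a median ratio of -0.09 and 22 not called. Cntn2, the axonal adhesion protein that gathers Kv1 channels beside nodes of Ranvier, had means of 2005 ± 316 from B6 and 923 ± 98.6 from Spret (SD, n = 3), a ratio of -1.11 ± 0.06 (limma adjusted p = 6.2e-10). The call of Cntn2 stood under every alternative run. Calm2 and Calm3, calmodulin genes, had -0.03 and -0.07 and were not called. The scaffold genes Dlg1 and Dlg2 had -0.34 ± 0.11 and -0.24 ± 0.07 and lost their calls with centred ratios (adjusted p = 0.152 and 0.268), without library 1 (0.267 and 0.0634) and without library 3 (0.0585 and 0.141), and Dlg2 also without library 2 (0.0872). Akap9, a large scaffold that anchors kinases at ion channels, was the gene higher from Spret, at 0.12 ± 0.04 (limma adjusted p = 0.0392), and lost its call without library 1, 2 or 3 (adjusted p = 0.17, 0.105 and 0.107). Ank2 and Ank3, the ankyrins that hold Kv7 channels at the axon initial segment, were not called, at 0.03 and 0.06.

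Of 20 pumps and cotransporters that set the potassium and chloride gradients, 18 autosomal genes were comparable, with 6 higher from B6 and 1 from Spret (38.9%, against 28.4%), a median ratio of -0.11 and 11 not called. Atp1b1, a beta subunit of the sodium-potassium pump, had means of 158 ± 56.7 from B6 and 107 ± 59.7 from Spret (SD, n = 3), a ratio of -0.64 ± 0.13 (limma adjusted p = 0.00205). Slc12a4, a potassium-chloride cotransporter, Slc24a4, a potassium-dependent sodium-calcium exchanger, and Oxsr1, a kinase that regulates these cotransporters, had -0.82, -1.02 and -0.33. Slc12a4 lost its call without libraries 2 or 3 (adjusted p = 0.18 and 0.215), Slc24a4 without library 1 (0.13) and Oxsr1 without libraries 1 or 3 (0.189 and 0.357). With centred ratios Slc12a4 and Oxsr1 were not called (0.0718 and 0.181).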

How the data were processed

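Ribosomal RNA was depleted from 3 day 12 organoid samples, and a depth of 80M reads was planned for each, per the labels' protocols. The deposited table holds a score per gene and allele: read numbers that the authors assigned to B6 or Spret, normalised and rounded, per the name of the table. Per the submitters' processing notes, mm10 was used. The aligner, allele assignment, counter, use of strand and scaling are not given in the sources used here. Whether alignment favoured the reference allele was not tested. Whole numbers up to 200 that no gene holds (27, 43 and 0 in libraries 1, 2 and 3) show a scale, estimated at 1.156, 1.276 and 0.672. Reads could not be recovered, so no count test was used.

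Positions came from GENCODE M21 (42620 genes) and RefSeq (899), both GRCm38, and 741 genes had none. limma 3.58.1 in R 4.3.3 was fitted on log2(value + 1) with terms for allele and library and limma's intensity trend, for genes with a mean of at least 10, two-sided, with Benjamini-Hochberg adjustment over all of them. The fit had 2 residual degrees of freedom, to which the prior contributed 12.3. The fit was tested on simulated data. Unlike the deposited values, the simulated counts had the same dispersion for every gene and were not rescaled. That run is therefore no check of the calls here. Both alleles of a library come from the same RNA, which makes the pairs: deviations of the alleles correlated at 0.21, 0.43 and 0.55 within libraries 1, 2 and 3, across genes. All comparable members were to be named, with values for called members and the highest of each class. A few members and partners are counted in the totals and not reported here by name. Neighbours are the nearest comparable autosomal genes by midpoint. Partners were named from the 6 called genes with the highest values per list, beside Abcc8 and some uncalled genes with high values. Members and lists were chosen with earlier results of these data known. X-linked partners were left out.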

Additional observations from a re-analysis of the deposited data

How the results depend on the processing

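From 20 (3 toward Spret, 17 toward B6), called channel genes numbered 1 with no filter on low values (0 toward Spret, 1 toward B6), 7 without limma's trend (1 and 6), 3 with no replicate block, that is without the library term that pairs the alleles (1 and 2), and 9 to 15 with a library left out (1 to 2 toward Spret and 8 to 13 toward B6). The partner genes called, 16 in all, became 4, 8 and 5 under the first 3 of these settings and 8 to 14 with a library left out. Centring moved the median ratio of channel genes from -0.35 to -0.23. A pseudocount of 0.5 or 5, a mean of at least 50 and both alleles at a mean of at least 5 kept these counts within 1.5 times. The share did move at a mean of at least 50, where 25 channel genes were tested and 15 called (60%, against 37.7% of autosomal genes). No called channel gene changed sign under any of the 11 alternatives. Uncalled genes near 0 did: with centred ratios Kcna6 (0.087), Kcnd3 (0.047), Kcnh1 (0.023), Kcnj10 (0.066), Kcnj6 (0.11), Kcnn1 (0.014) and Kcnt1 (0.083), and with a library left out Kcna6 (-0.17 to 0.075), Kcnc2 (-0.19 to 0.31), Kcnf1 (-0.81 to 0.13), Kcnh3 (-0.014 to 0.21), Kcnip4 (-0.090 to 0.11), Kcnj10 (-0.56 to 0.40), Kcnj6 (-0.29 to 0.17), Kcnk2 (-0.13 to 0.29), Kcnmb2 (-0.61 to 0.063), Kcnn1 (-0.41 to 0.17) and Kcnt1 (-0.40 to 0.49). Precision is limited by few reads in low genes and by 3 libraries.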

Other observations

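Some rows with related symbols fall outside the potassium channel genes as defined, and they were chosen here after their values were seen. Kcnd1, a Kv4 channel gene on chromosome X, read 25, 20 and 37 on the B6 allele and was listed at 0 for Spret in all 3 libraries. Kcne1l, also X-linked and related to Kcne2, read 17, 9 and 3 on the B6 allele, was at 0 on the Spret allele, and like Kcne2 it was highest in library 1. Low Spret values are not particular to these X-linked genes. The neuron marker Dcx, also on chromosome X, read 5520, 5700 and 6490 from B6 and 1, 5 and 2 from Spret. Kcnmb4os2, an antisense RNA that overlaps Kcnmb4 by 716 bases, read 20, 15 and 17 from B6 and 12, 5 and 9 from Spret, a ratio of -0.98 ± 0.35 (limma adjusted p = 0.0467), but reached the mean of 10 only through its B6 values. Kcnd3os, antisense to Kcnd3, had -0.46 ± 0.36 (limma adjusted p = 0.365), and Kcnrg, a protein that interferes with Kv channel assembly, had means of 18 ± 5.57 from B6 and 19 ± 3.46 from Spret (SD, n = 3). Reads of a gene and its antisense partner may be shared where strand was not used.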
